A study of Mus musculus with 7 samples.

Results

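The genes described here encode 8 enzymes that make serine and pass its carbon to folate: Phgdh, Psat1, Psph, Shmt1, Shmt2, Mthfd1, Mthfd1l and Mthfd2. They were taken from a table of 21487 genes by symbol, and all 8 were found and passed the filter on low counts. RNA was sequenced from gastrocnemius, the fast calf muscle, of mice with a skeletal muscle knockout of Park7 (DJ-1), called MPARK7KO (4 libraries, knockout 1 to 4), and of flox mice, labelled WT (3 libraries, control 1 to 3). Every mouse had immobilization-induced atrophy, so the comparison was knockout minus control in disused muscle and no free limb was measured. The labels give no age and do not name the promoter that drives the deletion. Nor do they say whether libraries came from different mice, so a p-value measures the spread between these samples, which may be technical.

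Serine is made from 3-phosphoglycerate, an intermediate of glycolysis, by PHGDH, PSAT1 and PSPH in turn. SHMT1 in the cytosol and SHMT2 in mitochondria then split serine into glycine and a carbon unit held by tetrahydrofolate. MTHFD1 in the cytosol, and MTHFD2 and MTHFD1L in mitochondria, convert that unit between its oxidation states, and the products serve purine, thymidylate and methionine synthesis. Several of these genes are known targets of ATF4, the transcription factor of the integrated stress response, which is induced by mitochondrial defects in muscle.

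Libraries held 24458343 to 26389010 expected counts, which are reads assigned to a gene by RSEM. Levels are in CPM, counts scaled to a common library size by the TMM method. The knockout was checked on Park7, which read 240, 229 and 266 CPM in the controls and 35.9, 41.5, 34.7 and 37.2 CPM in the knockouts. On the log2 scale it fell by 2.71 (SE 0.0918, adjusted p = 3.09e-06 in edgeR's quasi-likelihood test). Markers of skeletal muscle fibres summed to 118833 to 146020 CPM in the controls and to 139409 to 210317 CPM in the knockouts. A gene is called where its p, adjusted over 13409 tested genes, is under 0.05, and 14.5% of tested genes were called (6.56% higher and 7.94% lower in the knockout). Upper quartile scaling changed the split from 879 higher and 1065 lower to 643 higher and 1275 lower.

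Among the 8 enzymes 1 was called, Psat1, which was lower in the knockout. That is 12.5% of the members beside 14.5% of all tested genes. Without control 1 there were 801 calls among 13561 genes, with 1 member among them, and without control 3 there were 775 among 13603, with 0 members. No member was called higher with edgeR or with DESeq2, and at an unadjusted p under 0.05 1 was higher (Shmt1) and 2 were lower (Psat1 and Phgdh). In edgeR's test Phgdh ranked 3236 by p (unadjusted p = 0.0261) and Mthfd1 4770 (unadjusted p = 0.0684) among 13409 tested genes. An unadjusted p under 0.05 was therefore common among all tested genes. The 14.5% is a share after adjustment and is no background for unadjusted counts, here or below. The median log2 fold change was -0.013 over the members and 0.0057 over all tested genes. Knockout and control libraries did not overlap for 3 members, Psat1 below and Shmt1 and Mthfd1 above, beside 28.8% of all tested genes.

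**Figure D1:**
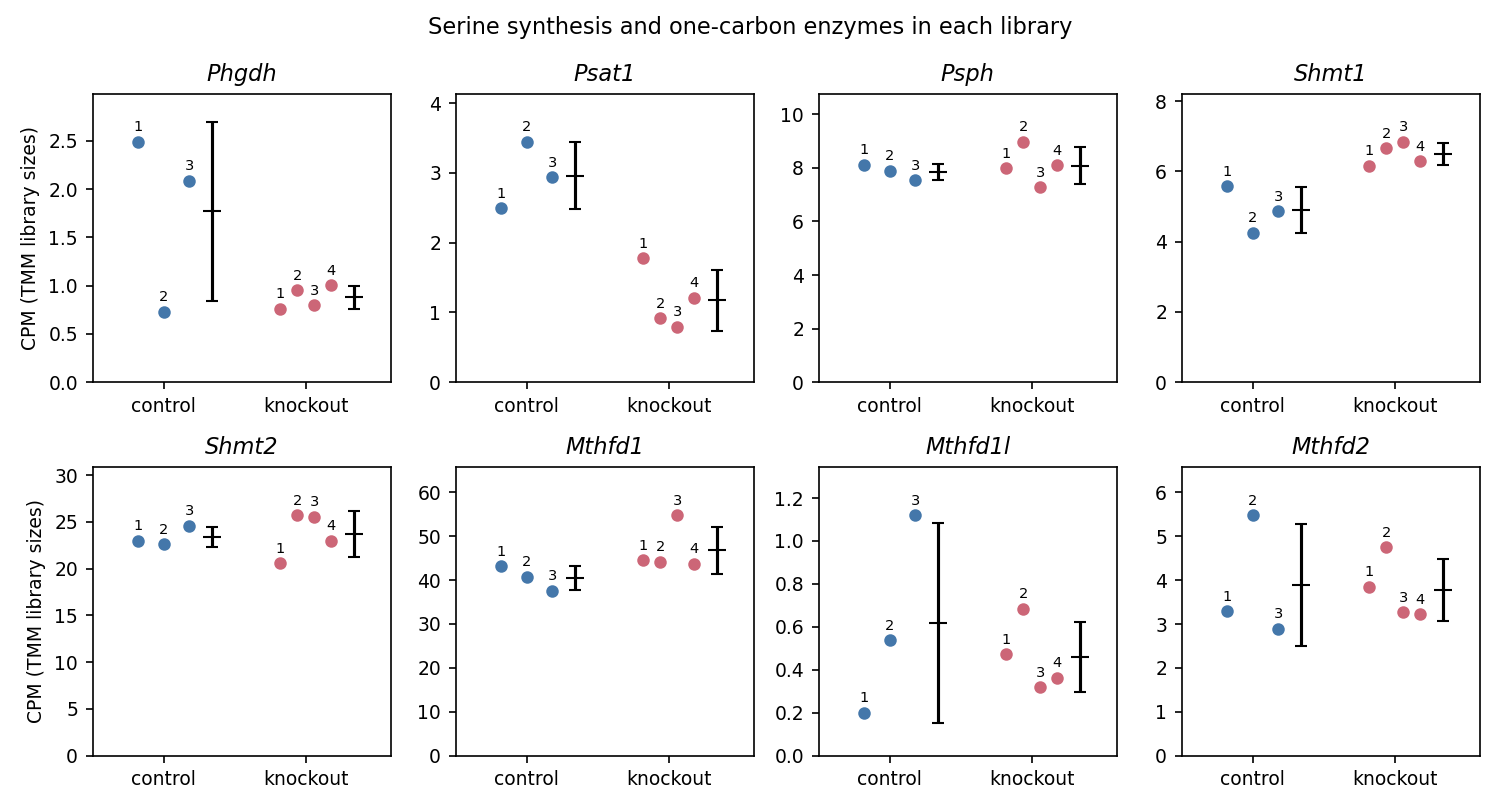
CPM of each enzyme in each library, with the number of the library above its point and the mean ± SD of the group in black beside the points. The 4 knockouts lie below all controls for Psat1 and above them for Shmt1 and Mthfd1, and control 2 lies with the knockouts for Phgdh.

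Upstream sequences are shown for the 2 serine synthesis genes with the lower knockout means and, beside them, for Shmt2, whose group means were close. They are the 250 bases before the RefSeq start site in GRCm38.p6, 5′ to 3′ on the gene's strand (the minus strand for all 3). Psat1 is at chr19:15925060-15925309, Phgdh at chr3:98339970-98340219 and Shmt2 at chr10:127522445-127522694, and capitals mark CCAAT on either strand.
Psat1: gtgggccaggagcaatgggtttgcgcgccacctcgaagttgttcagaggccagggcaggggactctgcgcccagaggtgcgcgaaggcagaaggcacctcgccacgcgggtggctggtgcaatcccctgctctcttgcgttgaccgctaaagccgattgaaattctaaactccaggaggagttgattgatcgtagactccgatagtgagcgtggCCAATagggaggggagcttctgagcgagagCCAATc
Phgdh: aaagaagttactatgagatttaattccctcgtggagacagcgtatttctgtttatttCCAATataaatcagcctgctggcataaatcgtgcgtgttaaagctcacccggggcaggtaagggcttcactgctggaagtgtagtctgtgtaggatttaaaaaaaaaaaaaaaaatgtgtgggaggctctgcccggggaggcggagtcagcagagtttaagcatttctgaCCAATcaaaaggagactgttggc
Shmt2: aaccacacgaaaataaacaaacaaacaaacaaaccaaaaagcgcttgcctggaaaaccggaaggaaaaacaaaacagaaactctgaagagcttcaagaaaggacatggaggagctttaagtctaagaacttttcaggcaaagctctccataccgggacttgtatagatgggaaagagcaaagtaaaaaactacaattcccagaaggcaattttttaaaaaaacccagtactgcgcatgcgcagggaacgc
CCAAT, the box bound by NF-Y, was added to the search after the sequences had been read. In windows of 300 bases, from 250 before to 50 after the start, it was found in 6 of the 9 windows of the members (Psat1 has a second start site) and in 37.4% of all 32851 windows. Psat1 had matches that begin at -36, -6 and 23 from the start site, the last of them beyond the printed bases, and Phgdh at -193 and -23. Psph and Mthfd2, with log2 fold changes of 0.043 and -0.044, also held CCAAT, as did Shmt1 and Mthfd1. Shmt2 and Mthfd1l did not, and the part of CCAAT in these levels was not tested. The composite ATF4 and C/EBP element TGATGNAA was in 0 of the 9 windows and in 3.97% of all windows, and the E-box CACGTG was in 0 and in 7.15%. The NRF2 core TGANNNNGC was in 6 of the 9 and in 41.3% of all windows, and its match in Shmt1 overlaps a CCAAT read on the other strand. Each motif was searched on both strands, and a missing match says only that these letters are not in this window.

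Of the serine synthesis genes, Psat1 fell, Phgdh had a lower mean with overlapping groups and Psph had near equal means. Psat1 encodes phosphoserine aminotransferase, the middle step, and lies on mouse chromosome 19 at 15904678 to 15947337 (GRCm38, minus strand). The 3 control libraries held 62, 90 and 76 counts of it, or 2.49, 3.45 and 2.94 CPM. The 4 knockout libraries held 49, 24, 20 and 30 counts, or 1.78, 0.913, 0.797 and 1.21 CPM. Every knockout was below every control, with knockout 1 nearest to the controls. The group means were 2.96 ± 0.479 CPM (SD, n = 3) and 1.17 ± 0.438 CPM (SD, n = 4), a fall to 0.397 times the control mean. This is a log2 fold change of -1.33 (SE 0.275, 95% interval -1.95 to -0.70, edgeR adjusted p = 0.0169). The call ended without control 2 (log2 fold change -1.20, adjusted p = 0.0582) or control 3 (-1.33, adjusted p = 0.0541), and it held without each of the other 5 libraries.

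Phgdh encodes phosphoglycerate dehydrogenase, the first and committed step, on chromosome 3 at 98313170 to 98339990 (minus strand). The controls held 62, 19 and 54 counts, or 2.49, 0.728 and 2.09 CPM. The knockouts held 21, 25, 20 and 25 counts, or 0.762, 0.951, 0.797 and 1.01 CPM. Control 2 was below all 4 knockouts, while controls 1 and 3 were above all of them. Control 2 was also the lowest control in the summed markers of Schwann cells (65.9 CPM), erythroid cells (224 CPM), fibroblasts (679 CPM), macrophages (57.2 CPM) and fast glycolytic fibres (63820 CPM). It was the highest control in those of slow fibres (2028 CPM), satellite cells (35.6 CPM) and proliferating cells (32.2 CPM). In endothelial (314 CPM) and adipocyte markers (169 CPM) it lay between the other controls. The part of these differences in its Phgdh and Psat1 levels was not tested. The exact Poisson 95% interval of the 19 counts in control 2 was 11.4 to 29.7 and that of the 62 counts in control 1 was 47.5 to 79.5, which covers counting error only. The coefficient of variation among the controls was 52.2%, where counting alone gives 14.9%, and among the knockouts it was 13.5%, where counting alone gives 20.97%. The knockout mean was 0.497 times that of the controls, with a log2 fold change of -1.003 (SE 0.378, 95% interval -1.86 to -0.15), which did not pass (adjusted p = 0.108). Without control 2 it passed, at -1.37 (adjusted p = 0.0218), and without control 1 it was -0.68 (adjusted p = 0.342).

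Leaving out control 2 ended the call of Psat1, as leaving out control 3 did, and gave a call of Phgdh. In control 2 Psat1 was the highest of the 7 libraries and Phgdh the lowest, so that Psat1 over Phgdh per length was 2.77 there, against 0.584 and 0.822 in the other controls and 0.561 to 1.36 in the knockouts. Without control 2 the number of members called was again 1, then Phgdh in place of Psat1.

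Psph encodes phosphoserine phosphatase, the last step, on chromosome 5 at 129765558 to 129787449 (minus strand). It read 8.12, 7.90 and 7.53 CPM in the controls and 7.98, 8.98, 7.29 and 8.10 CPM in the knockouts, and the groups overlapped. The log2 fold change was 0.043 (95% interval -0.21 to 0.29, adjusted p = 0.821). Exons of Psph overlap a transcript of Cct6a on the other strand by 452 bases, and whether strand was used in counting is not stated.

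Within each library the level of Psph per kilobase of exon was set against the levels of the other 2 genes. Psph over Psat1 was 3.20, 2.25 and 2.52 in the controls and 4.41, 9.66, 8.99 and 6.58 in the knockouts, all higher. Psph over Phgdh was 1.87, 6.23 and 2.07 in the controls, control 2 apart, and 4.62 to 6.02 in the knockouts. The summed level of the 3 genes per kilobase was 3.46, 2.93 and 3.27 in the controls and 2.57, 2.67, 2.19 and 2.56 in the knockouts, without overlap. These ratios and sums are descriptions and were not tested.

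**Figure D2:**
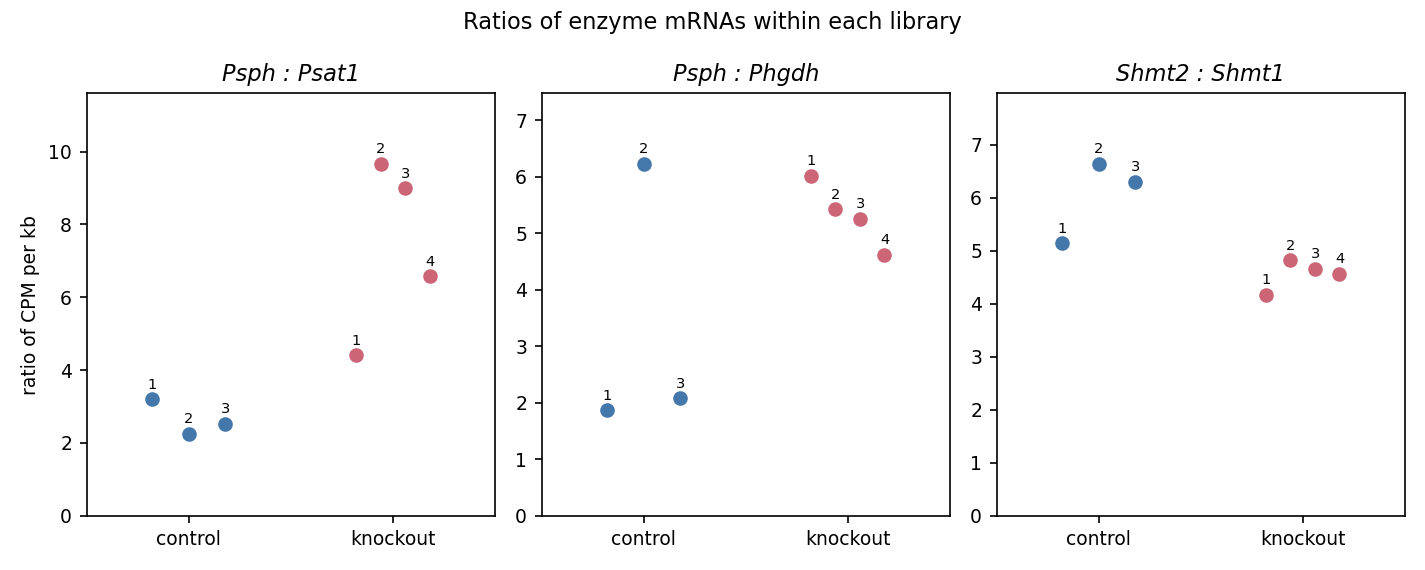
Ratios of CPM per kilobase of exon between pairs of enzymes within each library, with the number of the library above its point. Psph over Psat1 is 2.25 to 3.20 in the controls and 4.41 to 9.66 in the knockouts, Psph over Phgdh is high in control 2, and Shmt2 over Shmt1 is 5.14 to 6.64 in the controls and 4.17 to 4.82 in the knockouts.

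The serine hydroxymethyltransferases come from a gene for each compartment. Shmt1, the cytosolic enzyme (chromosome 11, 60788104 to 60811718, minus strand), read 5.59, 4.25 and 4.87 CPM in the controls. It read 6.17, 6.66, 6.85 and 6.29 CPM in the knockouts. All knockouts were above all controls, with control 1 nearest to them, and the knockouts varied less (coefficient of variation 4.91%) than the controls (13.6%). The knockout mean was 1.32 times that of the controls, with a log2 fold change of 0.40 (SE 0.13, 95% interval 0.11 to 0.70), which did not pass (unadjusted p = 0.0124, adjusted p = 0.0686 with edgeR and 0.0657 with DESeq2). Over the 7 sets that lack a library, its log2 fold change was 0.31 to 0.50 and its adjusted p 0.0749 to 0.187. Exons of Shmt1 overlap those of Smcr8 on the other strand by 184 bases, so that reads there cannot be assigned if strand was not used.

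Shmt2, the mitochondrial enzyme (chromosome 10, 127517123 to 127522444, minus strand), read 23.0, 22.6 and 24.6 CPM in the controls. It read 20.6, 25.7, 25.6 and 23.0 CPM in the knockouts, which lay on both sides of the controls. The log2 fold change was 0.019 (95% interval -0.20 to 0.24, adjusted p = 0.914), so a change beyond 0.24 on the log2 scale lies outside the interval. Per kilobase of exon, Shmt2 was 5.14, 6.64 and 6.30 times Shmt1 in the controls and 4.17, 4.82, 4.66 and 4.56 times in the knockouts. The mitochondrial form was the more abundant in every library, and its excess was smaller in every knockout than in any control, a description of these 7 libraries with no test.

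Among the folate dehydrogenases and synthetases no gene was called with edgeR or DESeq2, and 0 had an unadjusted p under 0.05 with edgeR. Mthfd1, the cytosolic enzyme with 3 activities (chromosome 12, 76255298 to 76319803, plus strand), read 43.1, 40.8 and 37.6 CPM in the controls and 44.5, 44.2, 54.8 and 43.8 CPM in the knockouts. All knockouts were above all controls, by a small margin except in knockout 3, which stood apart from the others. The log2 fold change was 0.21 (SE 0.101, 95% interval -0.02 to 0.44, adjusted p = 0.192), and without knockout 3 it was 0.12 (adjusted p = 0.385). Summed per kilobase, the cytosolic enzymes Shmt1 and Mthfd1 came to 11.2, 10.3 and 9.71 in the controls and 11.6, 11.7, 14.1 and 11.5 in the knockouts.

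Mthfd2, the mitochondrial dehydrogenase and cyclohydrolase (chromosome 6, 83305691 to 83325908, minus strand), is abundant in embryos and tumours and low in most adult tissues. It read 3.30, 5.48 and 2.90 CPM in the controls and 3.85, 4.76, 3.27 and 3.22 CPM in the knockouts, so that control 2 was the highest library and the groups overlapped. The log2 fold change was -0.044 (95% interval -0.60 to 0.51, adjusted p = 0.92) with all libraries and 0.29 without control 2 (adjusted p = 0.417). Its paralog Mthfd2l, the form described in adult tissue, was named after its values had been seen. It stood at 2.90 ± 0.18 CPM (SD, n = 3) and 2.88 ± 0.441 CPM (SD, n = 4), with an adjusted p of 0.964.

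Mthfd1l, the mitochondrial formyl-tetrahydrofolate synthetase (chromosome 10, 3973118 to 4167081, plus strand), had the fewest reads of the 8. Its controls held 5, 14 and 29 counts, or 0.201, 0.537 and 1.12 CPM. Its knockouts held 13, 18, 8 and 9 counts, or 0.472, 0.685, 0.319 and 0.363 CPM. The lowest and highest libraries were both controls, and the 95% interval of the log2 fold change, -1.60 to 0.75, was the widest of the 8 (adjusted p = 0.61). A 2-fold fall lies within that interval. The coefficient of variation among the controls was 75.1%, where counting alone gives 25%. The mitochondrial enzymes Shmt2, Mthfd1l and Mthfd2 together came to 8.39, 8.97 and 8.99 CPM per kilobase in the controls and 7.83, 9.79, 9.23 and 8.40 in the knockouts.

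**Figure D3:**
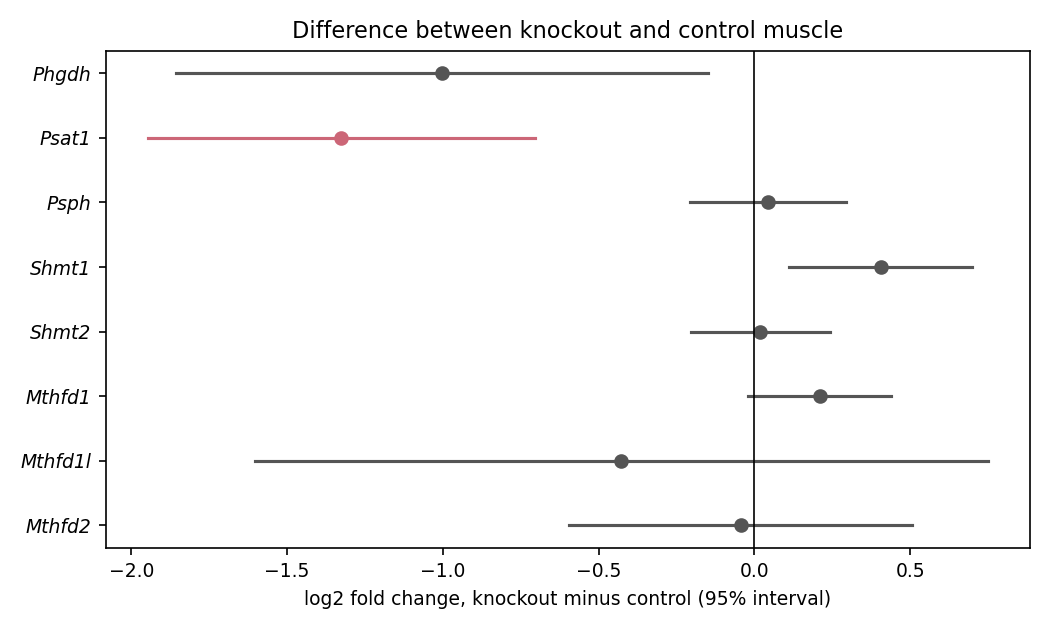
Log2 fold change of each enzyme, knockout minus control, with its 95% interval. Psat1, in red, is the gene called at an adjusted p under 0.05. The interval of Mthfd1l is the widest and those of Shmt2, Psph and Mthfd1 are the narrowest.

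The enzymes covered a wide range of levels. Per kilobase of exon the control means, in CPM per kb, were 9.12 ± 0.631 for Mthfd1, 7.52 ± 0.333 for Shmt2, 1.81 ± 0.0685 for Psph and 1.26 ± 0.172 for Shmt1 (SD, n = 3). Then came Mthfd2 at 1.12 ± 0.399, Phgdh at 0.712 ± 0.372, Psat1 at 0.696 ± 0.113 and Mthfd1l at 0.14 ± 0.105 CPM per kb. Of neighbours in this order, the controls of Shmt1 and Mthfd2, of Mthfd2 and Phgdh, and of Phgdh and Psat1 overlapped, and those of the other pairs did not. The knockout means had the same order. With the longest transcript as the length, Mthfd2 (1.87) came before Shmt1 (1.72) and Psat1 (1.13) before Phgdh (0.935) in the controls, so the order within those pairs rests on the length chosen.

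**Figure D4:**
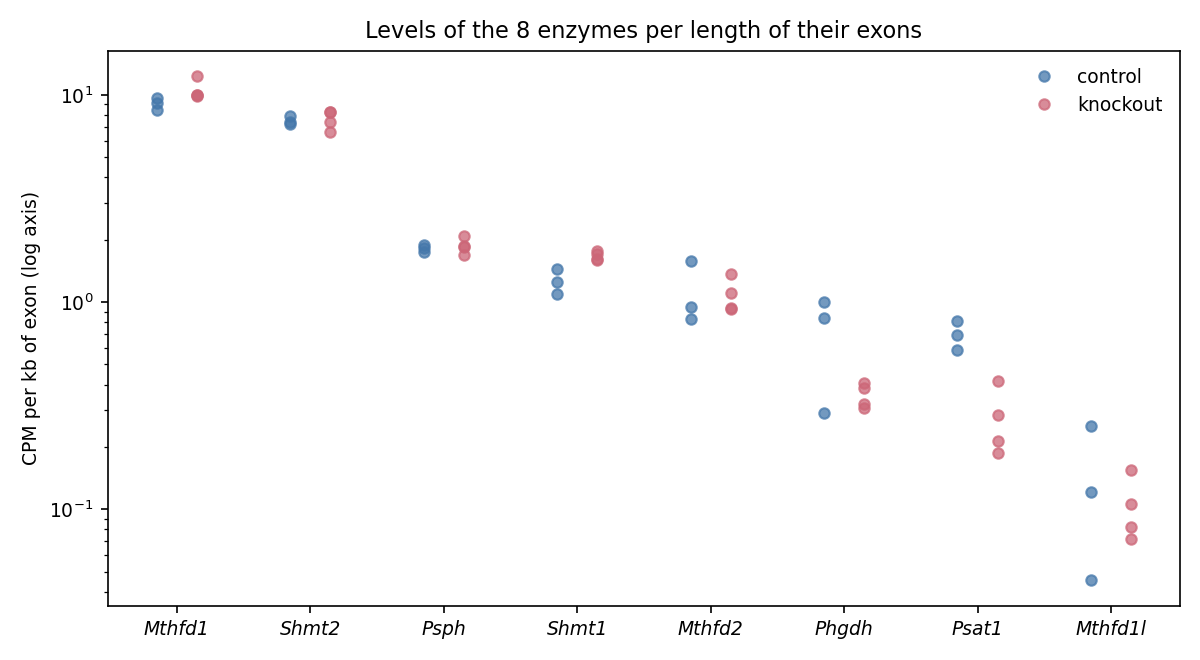
CPM per kilobase of exon of the 8 enzymes in each library, on a log axis, ordered by the control mean. Mthfd1 and Shmt2 lie well above the others, and the first 2 serine synthesis genes and Mthfd1l are the lowest.

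The first 2 steps of serine synthesis therefore rested on few reads. Over the 7 libraries Phgdh averaged 32.3 counts, Psat1 50.1 and Mthfd1l 13.7, against 99 for Mthfd2, 150 for Shmt1, 206 for Psph, 608 for Shmt2 and 1137 for Mthfd1. The fitted biological variation was 32.2% for Phgdh, 22.7% for Psat1 and 40.4% for Mthfd1l, and 10.9% to 12.2% for Shmt2, Psph, Mthfd1 and Shmt1.

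**Figure D5:**
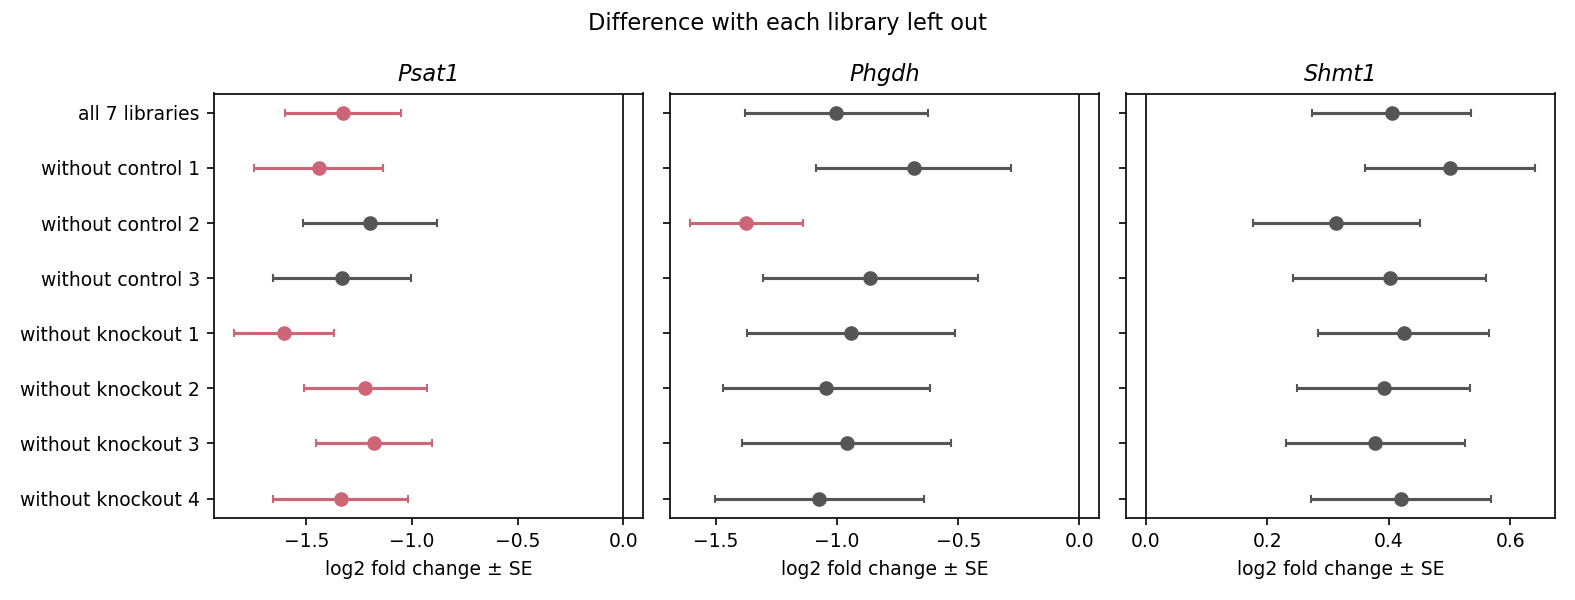
Log2 fold change ± SE, knockout minus control, of Psat1, Phgdh and Shmt1 with all 7 libraries and with each left out, in red where the adjusted p is under 0.05. Psat1 is red with all libraries and in 5 of the 7 reduced sets, Phgdh is red without control 2, and Shmt1 is never red.

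Markers of some other cell types also differed, and in bulk muscle fewer cells of a type and less RNA per cell cannot be told apart. Beside the counts below, 14.5% of all tested genes were called (7.94% lower and 6.56% higher). The endothelial and Schwann cell lists, at 12.5% and 16.7% called, were near that share. The summed level of 6 Schwann cell markers was 65.9 to 261 CPM in the controls and 41.8 to 59.0 CPM in the knockouts (1 of 6 called lower, 0 higher). That of 8 endothelial markers was 271 to 334 and 236 to 267 CPM (1 of 8 lower), and that of 7 adipocyte markers 152 to 195 and 91.1 to 146 CPM (2 of 6 tested lower). These 3 sums did not overlap between groups. Fibroblast markers (679 to 1209 and 600 to 800 CPM, 3 of 8 lower) and macrophage markers (57.2 to 92.7 and 39.2 to 63.3 CPM, 3 of 10 lower) overlapped. The largest parts of the fibroblast sum were Gsn and Dcn (465 and 205 CPM in the controls), which were not called (log2 fold change -0.11 for each). Satellite cell markers (30.5 to 35.6 and 27.7 to 40.1 CPM) had none called by edgeR or DESeq2. At an unadjusted p under 0.05, which was common among all tested genes, 2 of 6 were lower. Most of that sum was Cdh15 (25.2 CPM in the controls, log2 fold change 0.28). Pax7, Myf5, Vcam1, Calcr and Chrdl2 were at -0.17, -0.41, -0.57, -0.64 and -1.23, and the list's median was -0.49. Proliferating cell markers (27.2 to 32.2 and 26.8 to 30.4 CPM) also had none called by edgeR or DESeq2. Of these edgeR tested 3, with 0 lower at an unadjusted p under 0.05, and Mki67, Top2a, Ccnb1, Cdk1 and Birc5 did not pass the filter. Erythroid markers summed to 224 to 809 and 101 to 235 CPM (3 of 5 tested lower), with overlap. Slow fibre markers summed to 1730 to 2028 and 70.7 to 675 CPM (3 of 8 lower) and fast glycolytic fibre markers to 63820 to 83475 and 101529 to 162631 CPM (2 of 6 higher, 1 lower). Neither sum overlapped between groups. Most of the fast glycolytic sum was Myh4 (46309 CPM in the controls and 99854 CPM in the knockouts). In that list Pfkfb1 was the gene called lower, and Pvalb and Mylk2 overlapped between groups. Counted over single genes, the groups did not overlap in 28.8% of all tested genes, and no such share was counted for sums. No marker of these lists was at 0 in all libraries, and the part of these shifts in the level of Psat1 was not tested.

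The 4 genes whose pattern over the 7 libraries was nearest to that of Psat1 were Inpp4b, Dkk2, Col8a1 and Fads6. Likeness was the root mean square difference in log2 CPM, each gene relative to its own control mean, and it was 0.116 for Inpp4b, an inositol phosphatase gene, and 0.198 for Dkk2, a secreted Wnt modulator. It was 0.202 for Col8a1, a collagen gene, and 0.227 for Fads6. Because they were picked by likeness over these same libraries, fold changes and calls near those of Psat1 follow from the choice. Their log2 fold changes were -1.33, -1.47, -1.17 and -1.38 (adjusted p = 0.0122, 0.0195, 0.0248 and 0.00648). The calls of Inpp4b and Fads6 survived the loss of any 1 library, whereas Dkk2 and Col8a1 lost their calls without some (largest adjusted p = 0.0659 and 0.0727). The genes nearest to Shmt1, picked in the same way and with the same limit, were Ccdc71l, Mprip, Sumf2 and Tbc1d14, at 0.0488 to 0.0688. Their log2 fold changes were 0.38, 0.39, 0.37 and 0.42. Of these Sumf2 was not called (adjusted p = 0.0795), and the other 3 each lost their call without some library (largest adjusted p = 0.112, 0.0941 and 0.079).

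In the wider pathway 106 genes of 7 lists were tested, of which 9 were called higher and 6 lower, or 14.2% beside 14.5% of all tested genes. Leaving out 1 library moved the 15 calls to 7 without control 1, control 2 or knockout 3, and to 3 without control 3. They moved to 9 without knockout 4 and to 17 without knockout 1 or 2. Calls over all tested genes moved as well, from 1944 to 801, 988 and 775 without control 1, 2 and 3. Without knockout 1, 2, 3 and 4 they were 1724, 2025, 937 and 1243. The lists were chosen with earlier results of these data known. Of 17 genes of the folate cycle and folate transport none was called by edgeR or DESeq2, and 1 was higher at an unadjusted p under 0.05 (median log2 fold change -0.025). That gene was Mtrr, methionine synthase reductase, at 0.21 (adjusted p = 0.147).

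Dld, the lipoamide dehydrogenase that the glycine cleavage system shares with pyruvate dehydrogenase, was the 1 gene called of 3 tested in that system. Its level was 296 ± 15.7 CPM in the controls and 228 ± 12.5 CPM in the knockouts, and it fell by 0.37 (log2, SE 0.0797, adjusted p = 0.0187). The call ended without control 1, control 2 or knockout 3 (adjusted p = 0.0723, 0.0582 and 0.0519). The system's other tested genes, Amt and Gcsh, had log2 fold changes of 0.065 and -0.068.

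Of 13 genes of the methionine cycle and transsulfuration 2 rose and 0 fell, as they did with DESeq2 (3 were higher and 2 lower at an unadjusted p under 0.05), and the median log2 fold change was -0.072. Ahcy, which clears S-adenosylhomocysteine, stood at 43.9 ± 5.65 and 63.1 ± 8.68 CPM and rose by 0.52 (log2, SE 0.129, adjusted p = 0.0297). That call was lost without control 1, control 3, knockout 3 or knockout 4 (adjusted p = 0.0652 to 0.113). Adi1, a dioxygenase of methionine salvage, rose by 0.40 (adjusted p = 0.0254) but was not called once control 2, control 3 or knockout 3 was dropped (adjusted p = 0.0648 to 0.0916).

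Among 16 genes of purine and thymidylate synthesis, which use the carbon units, 0 rose and 2 fell with edgeR (1 and 2 with DESeq2, and 2 higher and 2 lower at an unadjusted p under 0.05). Tk1, the thymidine kinase of dividing cells, stood at 2.32 ± 0.456 and 1.22 ± 0.171 CPM and fell by 0.93 (log2, SE 0.21, adjusted p = 0.0225). That call was lost without control 2, control 3 or knockout 4 (adjusted p = 0.0547 to 0.0774). Prps2, a phosphoribosyl pyrophosphate synthetase gene, fell by 0.83 (adjusted p = 0.044), which held without knockout 1 and was lost without each other library, and with no filter on low counts (adjusted p = 0.0563 to 0.135).

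Of 24 genes of serine and glycine transport and use 1 rose and 2 fell, or 12.5% beside 14.5% of all tested genes. With DESeq2 2 rose and 3 fell, and at an unadjusted p under 0.05 with edgeR 4 were higher and 3 lower. Slc38a4, an amino acid transporter of the plasma membrane, stood at 93.1 ± 29.9 and 178 ± 25.1 CPM and rose by 0.93 (log2, SE 0.198, adjusted p = 0.0181). Serinc5, a serine incorporator gene, fell by 0.79 (SE 0.157, adjusted p = 0.0148), and Gcat, which makes glycine from a breakdown product of threonine, fell by 0.58 (SE 0.163, adjusted p = 0.0453). The call of Slc38a4 ended without control 2 or 3 (adjusted p = 0.0624 and 0.0642) and that of Serinc5 without control 1 or 3 (0.0509 and 0.0628). Gcat was called without knockout 2 and not without any other library (adjusted p = 0.0771 to 0.134).

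Of 24 genes tested in the list of ATF4 and its targets 4 rose and 0 fell (6 and 0 with DESeq2). That is 16.7% beside 14.5% of all tested genes, and the median log2 fold change was 0.31. At an unadjusted p under 0.05, 9 were higher and 3 lower. The 3 lower were Atf3, Ddit3 and Nupr1, at -1.86, -0.55 and -0.76 (edgeR adjusted p = 0.127, 0.132 and 0.0834). Vldlr, a lipoprotein receptor gene, stood at 297 ± 27.1 and 568 ± 45.1 CPM and rose by 0.94 (log2, SE 0.1, adjusted p = 0.00279). Its call survived the loss of any 1 library. Eif4ebp1, a repressor of translation, rose by 1.10 (adjusted p = 0.0127), and Ddit4, a brake on mTOR, by 1.94 (adjusted p = 0.0172). Ppp1r15a, which restores translation after stress, rose by 1.04 (adjusted p = 0.0499). The call of Eif4ebp1 ended without control 3 (adjusted p = 0.0513) and that of Ddit4 without control 2 or 3 (0.0582 and 0.0677). That of Ppp1r15a held without control 2 or knockout 2 and ended without each other library (adjusted p = 0.072 to 0.162), and also with RLE or upper quartile scaling, with a filter at a mean count of 10 or with a robust prior (0.051 to 0.0943).

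Set beside this list, Psat1 fell, while Shmt2 and Mthfd2 had log2 fold changes of 0.019 and -0.044. Phgdh, with overlapping groups, was at -1.003 and was not called (edgeR adjusted p = 0.108). The part of ATF4 in these levels was not tested. Atf4 itself and the classical target Asns were named after their values had been seen. Atf4 read 122, 167 and 124 CPM in the controls and 187, 195, 170 and 180 CPM in the knockouts, all higher, with control 2 nearest to them. Its log2 fold change of 0.41 did not pass with edgeR (adjusted p = 0.0511). It passed with DESeq2 (0.0167), with no filter on low counts (0.0463), with a robust prior (0.0468) and without control 2 (0.0192). Without each other library it did not pass (largest adjusted p = 0.183). Asns, asparagine synthetase, read 0.965, 0.69 and 1.24 CPM in the controls and 0.617, 1.10, 0.518 and 0.524 CPM in the knockouts, with overlap (log2 fold change -0.47, adjusted p = 0.381).

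Glycolysis supplies the 3-phosphoglycerate from which PHGDH starts. Of 10 glycolysis genes 2 rose and 1 fell (4 and 1 with DESeq2), or 30% beside 14.5% of all tested genes. Among the 10 were the mutase genes Pgam1 and Pgam2, whose enzymes use up 3-phosphoglycerate. The count called was 1 without any one of the controls, knockout 3 or knockout 4, and 3 without knockout 1 or 2. In the sets with 1 called, calls over all tested genes were also fewer, at 775 to 1243 beside 1944 with all libraries. Gpi1, glucose phosphate isomerase, rose 1.63-fold (adjusted p = 0.00818), also with any 1 library dropped. Aldoa, the muscle aldolase, rose 1.35-fold (adjusted p = 0.0378), a call that was kept without knockout 1 and lost without each other library, and with upper quartile scaling (0.0536). Pgam2, the muscle phosphoglycerate mutase, which draws on the same 3-phosphoglycerate, stood at 1137 ± 29.2 and 884 ± 48.7 CPM and fell by 0.36 (log2, adjusted p = 0.0237). Its call ended without any 1 control, knockout 3 or knockout 4 (largest adjusted p = 0.0722).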

How the data were processed

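The deposited table holds RSEM expected counts per gene symbol for 7 gastrocnemius libraries, sequenced by BGISEQ-500 with paired reads of 150 bp, per the labels' protocols. Per the submitters' processing notes and the series design text, the authors mapped reads to mm10 with STAR 2.7.10a, quantified with RSEM 1.2.28 and tested with DESeq2 1.3.40; the annotation and the use of strand are not stated there. Here the expected counts were rounded and tested with edgeR 4.0.16 (R 4.3.3) by the quasi-likelihood F test, after filterByExpr and TMM scaling, with Benjamini-Hochberg adjustment. A standard error was derived from each log2 fold change and its F statistic, and intervals from the t distribution of the fit. Of the members, Mthfd1 alone had expected counts that were not whole, in 3 libraries. Lengths and positions are from GENCODE M21 (GRCm38) and upstream sequences from RefSeq (GRCm38.p6), where all 8 members matched. The fit was tested on simulated data. Members and lists were chosen with earlier results of these data known. Named genes were all members, Park7, up to 4 called genes of each list by smallest p (or 2 where none was called) and the 4 genes nearest in pattern to the 2 members with the smallest p. Alternatives were RLE and upper quartile scaling, DESeq2 1.42.0, dropping the filter or setting it at a mean count of 10, a robust prior, a term for the replicate number and leaving out each library. A gene that the rule would name is not reported here.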

Additional observations from a re-analysis of the deposited data

Results flagged for a closer look

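In the 4 knockouts, 37 named genes were screened for a library far from the others by the size of its gap to the nearest one relative to the group's range, which chance gives for about 1 in 20 groups. Knockout 3 was apart for Mthfd1, at 54.8 CPM against 43.8 to 44.5 CPM in the other knockouts. Knockout 2 was apart for Asns, at 1.1 CPM against 0.518 to 0.617 CPM.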

How the results depend on the processing

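Psat1 was the 1 member called with DESeq2, RLE or upper quartile scaling, a robust prior, and with the filter dropped or set at a mean count of 10. With the replicate block 1224 genes were called in place of 1944, and 0 members (0 lower; Psat1 at -1.38, adjusted p = 0.0575). The calls of Tk1, Prps2, Gcat, Ppp1r15a, Dkk2, Col8a1, Ccdc71l, Mprip and Tbc1d14 also ended with it (adjusted p = 0.0527 to 0.102). Same-numbered libraries correlated at 0.0945, 0.134 and 0.0854 in their deviations from the group means, not all above 0.1, so the numbers were not taken to pair them; each control correlated best with the knockout of its own number. With 1 library left out, 775 to 2025 genes, 0 to 1 members (0 to 1 lower) and 3 to 17 pathway genes were called, in fits with fewer samples. Members whose log2 fold change was near 0 changed sign. Psph was -0.0060 and Shmt2 -0.031 with upper quartile scaling, and Mthfd2 was 0.055 with the replicate block. With 1 library left out Psph ran from -0.011 to 0.0896, Shmt2 from -0.023 to 0.078, Mthfd1l from -0.85 to 0.31, Mthfd2 from -0.22 to 0.29 and Mthfd2l from -0.086 to 0.073. Psat1, Phgdh, Shmt1 and Mthfd1 kept their direction under every alternative run. With the longest transcript as length, 13 of 16 levels per kilobase moved by more than the SD between libraries. Mthfd1l had the fewest reads of the members, 13.7 counts on average. The cause of these shifts was not tested.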
